A study of Mus musculus with 21 samples.

Results

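Smooth muscle and pericyte marker genes were examined in mouse hearts from a study of heart failure with preserved ejection fraction (HFpEF), a syndrome in which the heart fails although it empties normally. The 9 genes were selected by name from the deposited gene table of 19096 genes: Myh11, Tagln, Cnn1, Smtn and Mylk, which mark contractile smooth muscle, and Pdgfrb, Rgs5, Cspg4 and Notch3, which mark pericytes and other mural cells. All 9 were found and all 9 passed the filter on low counts. Male C57BL/6NJ mice, 8 to 10 weeks old when randomized, had chow or a diet with 60% of its calories from fat for 10 weeks. A second randomization gave them AAV-Renin, a viral vector for the blood pressure enzyme renin, or a null vector by retro-orbital injection, and freeze-clamped heart tissue was taken 6 weeks later. The 4 groups were chow novirus (n = 4), chow Renin (n = 6), HFD novirus (n = 6) and HFD Renin (n = 5), where the sample labels write novirus for the control treatment and the design describes a null vector. The combined group, HFD Renin, is the HFpEF model, which joins obesity from the diet with hypertension from renin, and the other Renin and HFD groups are its separate components. The vector's promoter, the tissue it acts in and the region of heart that was sampled are not given in the sources used here.

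Smooth muscle cells wrap arteries and larger vessels and contract when calcium and calmodulin activate myosin light chain kinase. Their contractile genes are switched on together by serum response factor with its partner myocardin, which bind CArG boxes near gene starts. Pericytes sit on capillaries, are recruited by platelet-derived growth factor B acting on the receptor Pdgfrb, and share Notch3 signalling with arterial smooth muscle. Angiotensin II, the end product of the cascade that renin starts, constricts both kinds of mural cell in many vessels.

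Positions are given in GRCm38. Of the contractile genes, Myh11 is at chr16:14194535-14291372 on the minus strand, Mylk at chr16:34745210-35002420 on the plus strand, Tagln at chr9:45929619-45936058 on the minus strand, Cnn1 at chr9:22099216-22109630 on the plus strand and Smtn at chr11:3517523-3540612 on the minus strand. Of the pericyte genes, Rgs5 is at chr1:169655501-169695813, Cspg4 at chr9:56865033-56899870 and Pdgfrb at chr18:61045150-61085061, all on the plus strand, and Notch3 is at chr17:32120820-32166852 on the minus strand.

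Levels between genes were compared per length, in TPM, which divides reads by transcript length and scales every library to the same sum. CPM, reads per library scaled with TMM factors and not divided by length, was used for differences between hearts and favours long transcripts. Rgs5, a brake on G protein signals that is rich in pericytes, had the highest mean over the 21 hearts, 86.1 TPM (range 67.7 to 104). Smtn, which codes for the actin-associated protein smoothelin, came next with 84.6 TPM (range 64.6 to 106), and those ranges overlapped almost fully. Tagln followed at 23.3 TPM, then Pdgfrb at 10.7, Notch3 at 8.29, Myh11 at 7.62, Mylk at 6.53, Cspg4 at 4.76 and Cnn1 at 2.69. The ranges of all neighbours in this order overlapped, those of Smtn and Tagln (9.69 to 65.2 TPM) only at their edges. Of the Smtn TPM, 32.0% belonged to Smtn-206, a short noncoding fragment within exons that other transcripts share, so the Smtn level per length rests partly on how reads were divided among transcripts. Heart muscle itself gave far larger sums: the 9 cardiomyocyte markers listed, such as Myh6 and Tnnt2, summed to between 53575 and 74808 CPM. In bulk tissue, fewer cells of a type and less RNA per cell cannot be told apart.

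Library totals ran from 18.7 to 29.3 M (mega) estimated reads. Those of chow novirus, at most 21.4 M, all lay below the others, at least 22.8 M, so depth and that group cannot be told apart. Atrial genes differed between single libraries. The summed CPM of 8 atrial markers, among them Myl7, Myl4 and Sln, was 816 in chow novirus heart 3, 773 in HFD novirus heart 3, 610 and 398 in chow Renin hearts 1 and 3 and 581 in HFD Renin heart 3. It was 56.8 to 112 in the other 16 hearts, and none of the 8 markers was at 0 in all hearts. Central neuron markers were high in every chow Renin library: their sum was 275 to 419 CPM there, 133 to 146 in chow novirus, 132 to 175 in HFD novirus and 106 to 172 in HFD Renin. All 8 of them, with 7 of 7 oligodendrocyte and 5 of 6 astrocyte markers, were called higher in chow Renin than in chow novirus.

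Of the 9 markers, only Smtn and Notch3 were called in any comparison. Counts out of 9 are too small to set the markers apart from all genes. Counts here and below are from edgeR's quasi-likelihood test with Benjamini-Hochberg adjustment over 15216 genes, with a call at an adjusted p under 0.05. HFD Renin against chow novirus had 1 of 9 called, Smtn, which was lower, where 8.29% of all genes were called (4.05% higher and 4.25% lower). Chow Renin against chow novirus also had 1 of 9, again Smtn and again lower, where 13.5% of all genes were called (10.1% higher and 3.36% lower). HFD Renin against HFD novirus had 2 of 9, Smtn and Notch3, both lower, where 11.1% of all genes were called (6.07% higher and 5.08% lower). These shares of all genes depend on single libraries. Over the 21 fits that each left out 1 library the share called ran from 3.67% to 11.4% in HFD Renin against chow novirus, from 9.83% to 15.5% in chow Renin against chow novirus and from 4.58% to 15.8% in HFD Renin against HFD novirus. The number of genes called fell by more than 1.5 times in the first of these without chow novirus heart 1, 2 or 4, and in both HFD Renin comparisons without HFD Renin heart 1, 2 or 5. In chow Renin the share called lower ran from 1.13% to 4.96% and fell by more than 1.5 times without chow novirus heart 1 or 2 or chow Renin heart 1, 3 or 5.

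The other comparisons called no member by edgeR or by DESeq2. HFD novirus against chow novirus had 0 of 9 called and 1, Mylk, at an unadjusted p under 0.05, where 0.0657% of all genes were called (0.0131% higher and 0.0526% lower). That share ran from 0% to 0.375% in the fits that each left out 1 library, and moved by more than 1.5 times in 16 of 21. HFD Renin against chow Renin had 0 of 9 called and 1, Cspg4, at an unadjusted p under 0.05, where 22.6% of all genes were called (9.8% higher and 12.8% lower). Leaving out 1 library moved the share called higher between 4.63% and 11.6%, by more than 1.5 times in 3 of 21 fits. The interaction, which is the Renin effect on HFD minus that on chow, had 0 of 9 called and 0 at an unadjusted p under 0.05, where 10.4% of all genes were called (3.14% higher and 7.3% lower). Its share called higher ran from 1.28% to 4.82% without 1 library, and moved by more than 1.5 times in 7 of 21 fits. The comparisons share groups, so their counts are not independent.

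**Figure D1:**
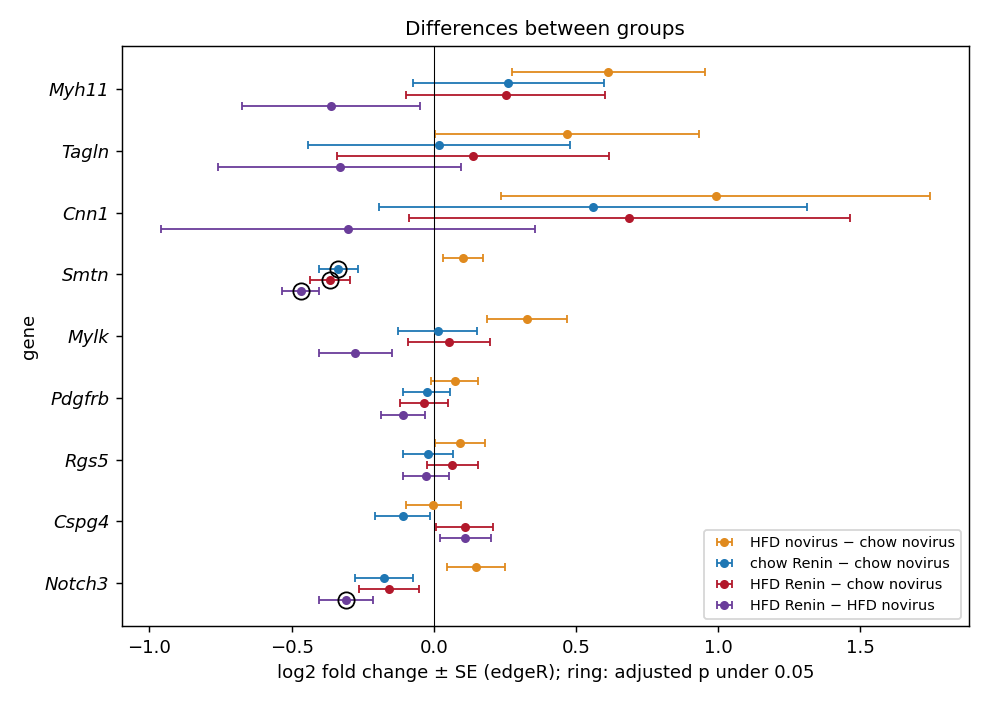
Log2 fold change (x axis, ± SE from edgeR) of each of the 9 genes (y axis) in 4 comparisons, shown by colour, with a ring where the adjusted p was under 0.05. Smtn is ringed in all 3 comparisons that involve Renin, Notch3 in HFD Renin against HFD novirus only, and the bars of Cnn1, Tagln and Myh11 are the widest.

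The median log2 fold change of the 9 members was 0.07 in HFD Renin against chow novirus (0.01 over all genes tested), -0.02 in chow Renin against chow novirus (-0.03 over all), 0.15 in HFD novirus against chow novirus (0.01 over all) and -0.30 in HFD Renin against HFD novirus (-0.01 over all). In the last of these 8 of 9 members had a negative value, although only 2 were called, and the median rests on single hearts: it was -0.07 without HFD novirus heart 3, -0.20 without HFD Renin heart 1 and -0.03 without HFD novirus hearts 3 and 6. Leaving out 1 library moved the median between -0.0026 (without HFD Renin heart 4) and 0.087 in HFD Renin against chow novirus, between -0.043 and 0.023 (without chow Renin heart 1) in chow Renin, and between 0.084 (without HFD novirus heart 6) and 0.28 (without chow novirus heart 4) in HFD novirus. Without HFD novirus hearts 3 and 6, 3 of those 8 had a positive value, none of them called: Myh11 at 0.18, Tagln at 0.42 and Cnn1 at 0.97. The authors' deposited table gives a log2 fold change of -0.34 for Smtn with an adjusted p of 0.0012, and of -0.13 for Notch3 with an adjusted p of 0.282. The column is headed HFD+virus and its reference group is not stated, and in the authors' deposited table no other member has an adjusted p under 0.05.

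Smtn, the smoothelin gene, was the member whose CPM did not overlap between Renin and control hearts on either diet. Smoothelin binds actin filaments in fully differentiated, contracting smooth muscle. Which cells of these hearts the Smtn reads came from was not tested, so its values cannot be read as those of smooth muscle alone. In chow novirus the 4 hearts had 165, 173, 152 and 170.3 CPM. In chow Renin they ran from 116 through a median of 133 to 148 CPM. In HFD novirus they ran from 169 through a median of 174 to 195 CPM, and in HFD Renin they had 119.6, 122, 139, 137 and 123 CPM. On either diet every Renin heart lay below every heart given the control treatment in CPM, as 4.75% of all genes tested did on chow and 1.52% on HFD, and the 2 diets overlapped within each treatment. In TPM chow Renin heart 6, at 90.3, lay above chow novirus heart 3, at 86.5, and it also did so in the deposited signal (110.1 against 108.1). On HFD the groups overlapped in neither of those units.

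The group means of Smtn were 165 ± 9.50 CPM (SD, n = 4) in chow novirus, 131 ± 12.3 (n = 6) in chow Renin, 177 ± 9.49 (n = 6) in HFD novirus and 128 ± 9.08 (n = 5) in HFD Renin. HFD Renin fell by 0.37 on the log2 scale from chow novirus (SE 0.07, adjusted p = 0.0032, edgeR), which is 0.776 times its level. Chow Renin fell by 0.34 (SE 0.07, adjusted p = 0.00099, edgeR), or to 0.792 times. From HFD novirus to HFD Renin the gene dropped by 0.47 (SE 0.07, adjusted p = 0.00044, edgeR), or to 0.723 times. Without Renin, HFD against chow gave 0.10 (SE 0.07, adjusted p = 0.619, edgeR), with an interval of ±2 SE from -0.04 to 0.24. The interaction was -0.13 (SE 0.09, adjusted p = 0.45, edgeR), so no difference in the Renin effect between diets passed the test. Of the variance of log2 CPM of Smtn, 83.4% lay between the 4 groups, against a median of 31.5% over all genes tested.

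Other measures moved between the same groups as Smtn. The summed CPM of the 9 cardiomyocyte markers was 62243 to 74808 in chow novirus, 58093 to 60456 in chow Renin, 60852 to 70126 in HFD novirus and 53575 to 60080 in HFD Renin. Among them 5 of 9 were called lower in HFD Renin against chow novirus, 2 of 9 in chow Renin against chow novirus, and 5 of 9 in HFD Renin against HFD novirus, where 1 was called higher. The summed CPM of 8 circadian clock genes, among them Dbp, Tef and Per1, was 720 to 822, 601 to 685, 690 to 768 and 531 to 676 in the same order of groups. With a clock score as a covariate the Smtn calls were lost: -0.21 (SE 0.10, adjusted p = 0.566, edgeR) against chow novirus for HFD Renin, -0.22 (SE 0.08, adjusted p = 0.0966) for chow Renin, and -0.36 (SE 0.08, adjusted p = 0.191) for HFD Renin against HFD novirus. That fit called 0 genes of all in the first and last of these comparisons. With a nervous tissue score as a covariate the chow Renin value was -0.16 (SE 0.21, adjusted p = 0.921, edgeR). In HFD Renin that fit gave -0.33 (SE 0.08, adjusted p = 0.0128, edgeR) against chow novirus and -0.48 (SE 0.07, adjusted p = 0.00053) against HFD novirus, both called. On each diet every Renin heart had a lower clock sum than every control heart, so the clock score and Renin cannot be told apart. The nervous tissue sums were high in chow Renin only, so that score and chow Renin cannot be told apart. Without the 5 libraries high in atrial markers Smtn was called in all 3 comparisons, at -0.45, -0.34 and -0.51 (adjusted p = 0.0025, 0.0076 and 0.00049, edgeR).

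Smtn was measured as a short and a long form, and its sequences show where they part. Smoothelin is known in a short form of visceral smooth muscle and a long form of blood vessels, made from separate start sites. In the GENCODE M21 annotation Smtn-201 has 9 exons and 436 codons, while Smtn-202 has 21 exons and 921 codons. Smtn-201 begins its reading frame in an exon of its own with 399 coding bases, at chr11:3527428-3527826. The lines below give, 5′ to 3′ on the coding strand and read from GRCm38, 90 bases before the join and the first 30 bases of the shared exon in capitals.
Smtn-201: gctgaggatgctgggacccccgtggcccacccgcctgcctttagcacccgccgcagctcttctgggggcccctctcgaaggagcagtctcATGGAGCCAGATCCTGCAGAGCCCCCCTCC
Smtn-202: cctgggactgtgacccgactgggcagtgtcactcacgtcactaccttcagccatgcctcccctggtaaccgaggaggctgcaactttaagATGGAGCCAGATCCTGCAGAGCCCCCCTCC
The sequences before the capitals differ, so reads over that join are specific to a form, whereas the exons downstream are common to both.

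Smtn-201 held 49.8% ± 2.68 (SD, n = 21) of the estimated Smtn reads and the long forms Smtn-202, Smtn-203, Smtn-204 and Smtn-210 held 42.5% ± 3.25. Both were lower in Renin hearts. Smtn-201 had 84.9 ± 8.05 CPM in chow novirus, 64.6 ± 6.14 in chow Renin, 89.5 ± 5.05 in HFD novirus and 61.7 ± 6.35 in HFD Renin. Its range was 73.3 to 90.7 in chow novirus against 57.5 to 72.5 in chow Renin, and 83.1 to 96.6 in HFD novirus against 54.7 to 70.1 in HFD Renin, with no overlap on either diet. The long forms together had 67.4 ± 5.11, 56.4 ± 5.37, 73.4 ± 9.39 and 56.8 ± 4.21 CPM in the same order. Their ranges were 60.3 to 72.4 against 50.5 to 63.1 on chow, which overlapped, and 64.3 to 90.9 against 52.0 to 61.7 on HFD, which did not. The share of Smtn-201 was 48.2% to 51.4% as a group mean. No test was run on single transcripts, whose reads are divided by estimation.

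**Figure D2:**
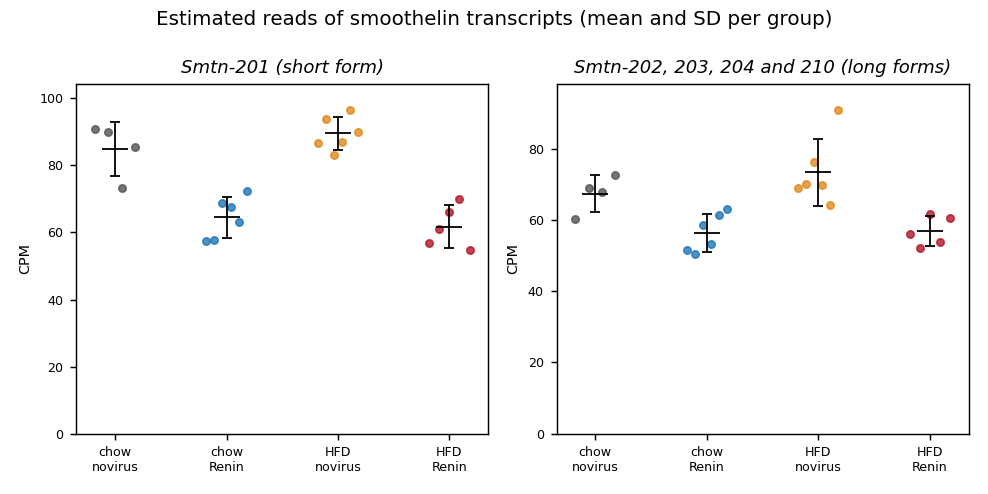
Estimated reads (CPM, y axis) of the short Smtn-201 transcript (left) and of the summed long forms (right) in the 4 groups (x axis); points are hearts and bars give mean and SD. The Renin hearts lie at 54.7 to 72.5 CPM for Smtn-201, under every heart without Renin (73.3 and above).

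The other contractile genes were called in no comparison (edgeR). In HFD Renin against HFD novirus, where Smtn gave -0.47 (SE 0.07), their values were also negative. Myh11 gave -0.36 (SE 0.31), Tagln -0.33 (SE 0.43), Cnn1 -0.30 (SE 0.66) and Mylk -0.28 (SE 0.13). A difference from Smtn was not tested. Myh11 codes for smooth muscle myosin heavy chain, Tagln for the actin-binding protein transgelin (SM22), Cnn1 for calponin, which restrains actomyosin, and Mylk for the kinase that starts contraction. Myh11 measured 47.9, 48.5, 56.0 and 39.3 CPM in chow novirus, from 35.0 through a median of 58.3 to 82.3 in chow Renin, from 33.5 through 62.5 to 143 in HFD novirus, and 41.5, 52.8, 69.3, 76.8 and 44.8 in HFD Renin. The high values of HFD novirus came from hearts 3 and 6, with 143 and 97.1 CPM, and all 4 groups overlapped.

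Tagln measured 27.4, 23.9, 52.7 and 23.1 CPM in chow novirus, from 14.7 through a median of 33.8 to 49.98 in chow Renin, from 19.9 through 31.1 to 98.6 in HFD novirus, and 21.5, 29.7, 49.96, 49.3 and 24.1 in HFD Renin. Cnn1 had the fewest reads of the members, 18 to 383 per library, and measured 2.14, 1.11, 4.57 and 0.873 CPM in chow novirus, from 0.895 through 3.62 to 5.69 in chow Renin, from 0.809 through 2.56 to 15.2 in HFD novirus, and 1.56, 3.05, 4.70, 5.72 and 2.41 in HFD Renin. Heart 3 was the highest of chow novirus and heart 3 the highest of HFD novirus for both genes, and the groups overlapped.

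Mylk was steadier, with means of 34.6 ± 1.98 CPM (SD, n = 4) in chow novirus, 34.9 ± 3.12 (n = 6) in chow Renin, 43.4 ± 10.6 (n = 6) in HFD novirus and 35.8 ± 5.31 (n = 5) in HFD Renin. Its difference between HFD novirus and chow novirus, 0.33 on the log2 scale (SE 0.14), was not called (adjusted p = 0.395, edgeR), with 5 of 6 HFD novirus hearts above all chow novirus hearts. HFD Renin against HFD novirus gave -0.28 (SE 0.13, adjusted p = 0.177, edgeR). HFD novirus hearts 3 and 6 had the most Mylk, 55.7 and 56.6 CPM, and without them these values were 0.10 (SE 0.11) and -0.05 (SE 0.10). Myh11 in HFD novirus against chow novirus gave 0.61 (SE 0.34, adjusted p = 0.537, edgeR), and without HFD novirus hearts 3 and 6 it gave 0.06. Without those 2 hearts the values of Tagln and Cnn1 in that comparison were -0.29 and -0.28, from 0.47 and 0.99 with them, and none of these was called.

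**Figure D3:**
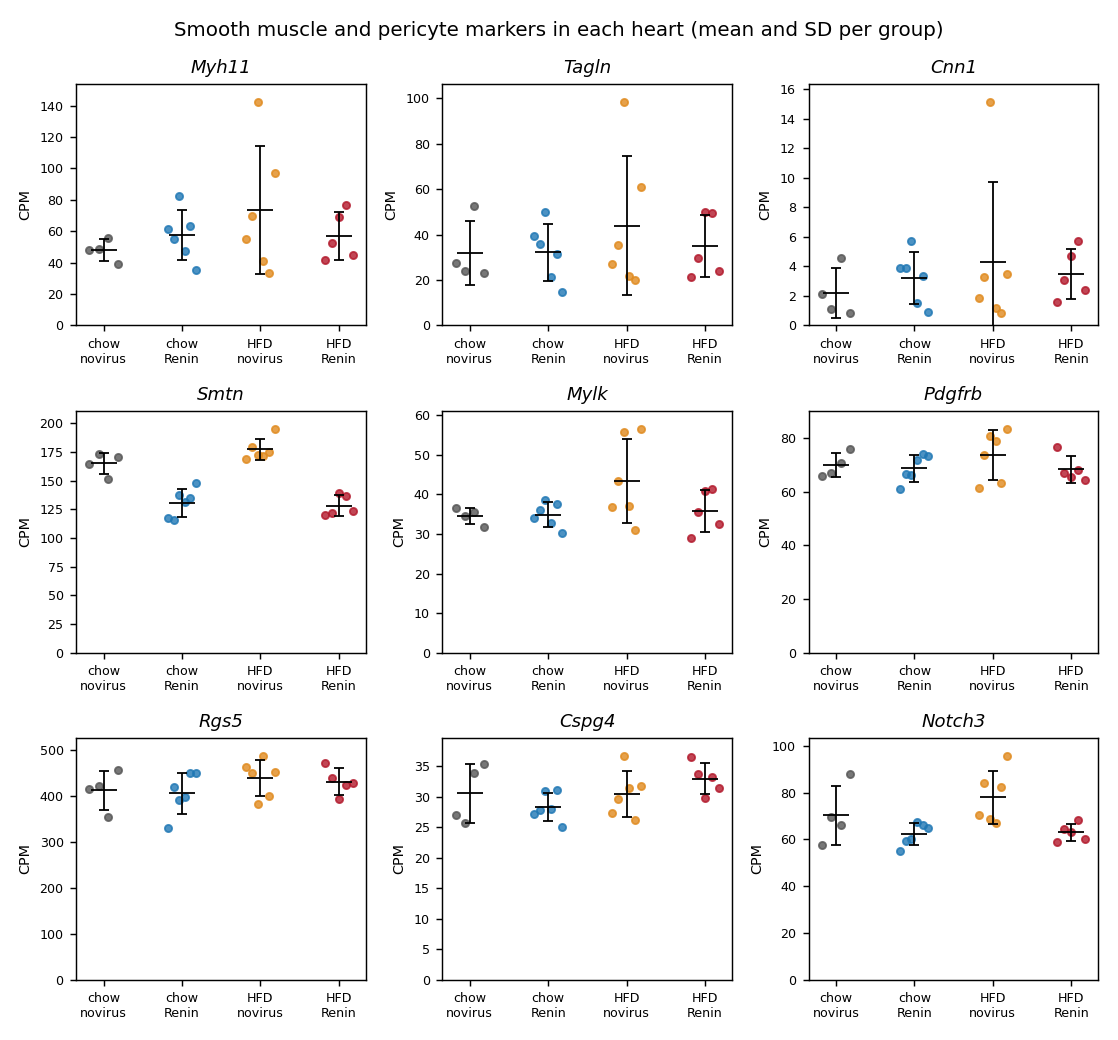
Normalized counts (CPM, y axis, from 0) of each of the 9 genes in the 4 groups (x axis); every point is 1 heart, and bars give the mean and SD. Smtn is lower in both Renin groups, and Myh11, Tagln and Cnn1 have wide spreads that 1 or 2 HFD novirus hearts lead.

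Most of the variation of these 4 contractile genes was between hearts of the same group. The SD of log2 CPM within groups was 0.52 for Myh11, 0.70 for Tagln, 1.1 for Cnn1 and 0.23 for Mylk, against 0.10 for Smtn and a median of 0.19 over all genes tested. A lower SD than that of Myh11 was found in 88.9% of genes, than that of Tagln in 95.5%, than that of Cnn1 in 98.6% and than that of Smtn in 13.7%. Groups accounted for 9.56% of the variance of Myh11, 3.89% of Tagln, 6.97% of Cnn1 and 26.7% of Mylk, against a median of 31.5% over all genes tested.

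These 4 genes also moved together from heart to heart. With group means removed, Pearson's r between them over the 21 hearts was 0.83 to 0.96: 0.95 between Myh11 and Tagln, 0.94 between Myh11 and Mylk, and 0.96 between Tagln and Cnn1. Acta2, the smooth muscle actin gene, had r of 0.86 to 0.92 with each of them. Smtn had r between -0.14 and 0.29 with the same 4 genes. These are descriptions over hearts that share the library of each value, and no p is given. Smtn correlated most with Notch3 among the members, at 0.55.

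**Figure D4:**
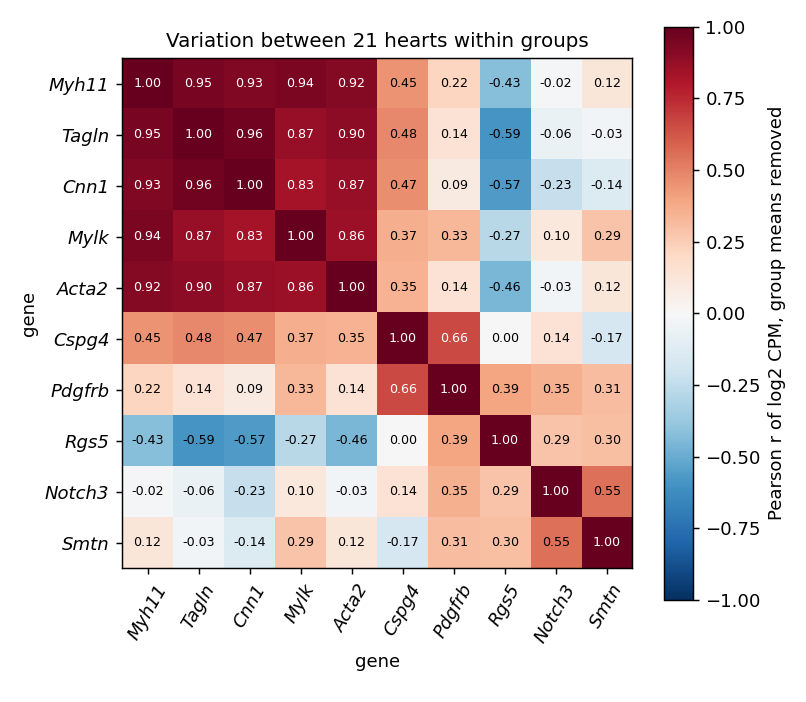
Pearson's r of log2 CPM between the 9 genes and Acta2 (both axes) over 21 hearts after removing group means, with r printed in each cell and shown by colour. Myh11, Tagln, Cnn1, Mylk and Acta2 form a block of r from 0.83 to 0.96, to which Smtn does not belong.

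The hearts with high contractile genes were partly those with atrial or fibroblast markers. HFD novirus heart 3 had Myh11 at 143, Tagln at 98.6, Cnn1 at 15.2, Mylk at 55.7 and Acta2 at 179 CPM, with an atrial sum of 773 CPM and a fibroblast sum of 2776 CPM. HFD novirus heart 6 had 97.1, 60.9, 3.51, 56.6 and 130.1 CPM of the same genes, with an atrial sum of 112 and a fibroblast sum of 2419. Chow novirus heart 3 had 56.0, 52.7, 4.57, 35.5 and 81.4 CPM of the same genes, with an atrial sum of 816 and a fibroblast sum of 2402. Its Mylk lay within the range of the other chow novirus hearts. The fibroblast sum, over 9 markers, was 2183 and 2028 in HFD Renin hearts 4 and 3 and lay between 1118 and 1793 in the other 16 hearts. Chow Renin heart 1, with an atrial sum of 610, had Myh11 at 61.3, Tagln at 39.3 and Mylk at 34.1 CPM. These lay within the ranges of the other chow Renin hearts. Chow Renin heart 3, with an atrial sum of 398, had the most Myh11, Tagln and Mylk of its group. The part of atrial or fibroblast content in the contractile values was not tested.

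**Figure D5:**
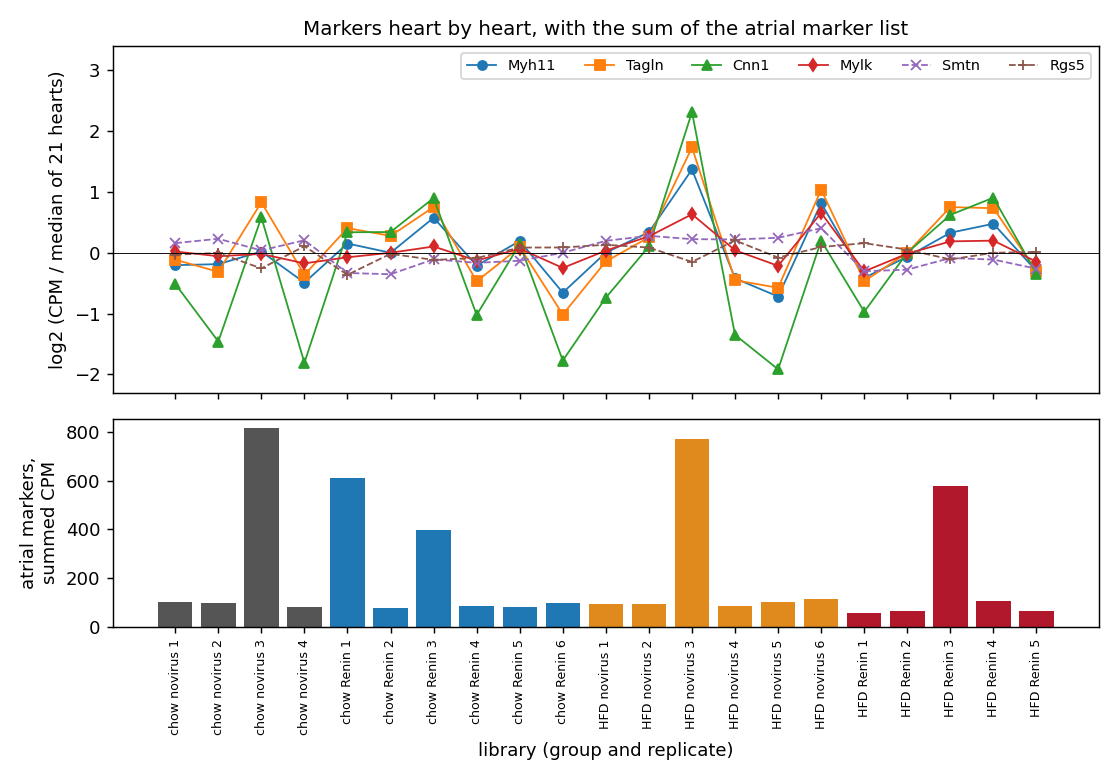
Upper panel: log2 of CPM over the median of 21 hearts (y axis) for 6 genes in each library (x axis). Lower panel: summed CPM of 8 atrial markers. Myh11, Tagln, Cnn1 and Mylk rise and fall together; Myh11, Tagln and Cnn1 peak in HFD novirus heart 3 (atrial sum 773 CPM) and Mylk in heart 6 (atrial sum 112 CPM), while Smtn and Rgs5 stay near 0.

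Likeness was measured as Pearson's r of log2 CPM over 21 hearts with group means removed, among 10054 genes with a mean of at least 5 CPM. The members themselves were left out of these genes. The genes most like the mean of the 5 contractile members were Myl9 (r = 0.967), which codes for a smooth muscle myosin light chain, Tpm2 (0.941, a tropomyosin), Col18a1 (0.930, a basement membrane collagen), Csrp2 (0.919, a LIM protein of smooth muscle) and Lmod1 (0.918, an actin nucleator). Among genes that are no member, Myl9 was also the closest to Myh11, Tagln and Mylk taken singly, and Tpm2 to Cnn1. Another member was closer still to Myh11, Mylk and Cnn1. The gene closest to Smtn was Efcab2 (r = 0.859).

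Myh11 transcripts differ in 2 short coding segments. Smooth muscle myosin is known with and without a 7-residue insert near the ATP-binding site, which is included in faster, phasic muscle, and with long and short tails. In GENCODE M21 the insert is a cassette exon of 21 bases at chr16:14248580-14248600, minus strand, present in 1 transcript and absent from the main long-tail transcript. The lines show the join 5′ to 3′ on the coding strand from GRCm38, with the cassette in capitals.
With the cassette: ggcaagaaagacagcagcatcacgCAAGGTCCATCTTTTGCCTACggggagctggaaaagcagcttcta
Without the cassette: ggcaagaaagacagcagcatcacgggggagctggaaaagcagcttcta
A short-tail transcript carries another last coding exon, of 28 bases, at chr16:14198061-14198088, where the long-tail transcript has 130 coding bases at chr16:14195055-14195184. The capitals in the next lines mark these tail segments after the shared exon.
Short tail: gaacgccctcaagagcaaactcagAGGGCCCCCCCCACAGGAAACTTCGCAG
Long tail: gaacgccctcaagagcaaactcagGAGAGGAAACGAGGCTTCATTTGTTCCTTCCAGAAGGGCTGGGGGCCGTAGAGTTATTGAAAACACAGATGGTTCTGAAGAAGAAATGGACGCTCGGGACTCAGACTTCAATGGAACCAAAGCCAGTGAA
The cassette is 21 bases of a transcript of 6450 bases, so few reads separate the forms.

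The cassette transcript took 41.1% ± 12.3 (SD, n = 21) of the estimated Myh11 reads, the long-tail transcript without the cassette 37.2% ± 10.3 and the short-tail transcript 21.6% ± 4.17. The cassette share ranged from 26.3% to 70.5% in chow novirus, from 33.8% to 50.7% in chow Renin, from 22.7% to 48.6% in HFD novirus and from 18.9% to 57.0% in HFD Renin, and all groups overlapped. It was 24.4% and 22.7% in HFD novirus hearts 3 and 6 and 26.3% in chow novirus heart 3, which had much Tagln, but lowest, at 18.9%, in HFD Renin heart 2, where Tagln was 29.7 CPM.

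Mylk also has a short transcript. Mylk-201 has 1950 codons and took 84.9% ± 4.61 (SD, n = 21) of the Mylk reads. Mylk-203 has 159 codons and starts inside the gene. Telokin, a product of this gene without a kinase domain that is known from smooth muscle, also comes from an internal start. Mylk-203 took 8.94% ± 2.06 of the reads and 30.3% ± 5.87 of the TPM. Its first coding bases, at chr16:34995116-34995175, plus strand, read: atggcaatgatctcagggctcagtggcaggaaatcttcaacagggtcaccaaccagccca. Mylk-203 had 2.75 ± 0.171 CPM in chow novirus, 3.54 ± 0.503 in chow Renin, 3.61 ± 1.58 in HFD novirus and 3.17 ± 0.609 in HFD Renin, and no test was run on it.

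The sequence upstream of the gene start was available from RefSeq, on GRCm38.p6, for 6 of the 9 members: Cnn1, Smtn, Mylk, Rgs5, Cspg4 and Notch3. The 200 bases before the first start that GENCODE or RefSeq places there are shown for the 3 contractile members among them, since Cnn1 and Mylk varied together and Smtn did not. Capitals mark CATTCC, the core of the MCAT element that TEAD factors bind. The windows are chr9:22099016-22099215 on the plus strand, chr16:34784721-34784920 on the plus strand and chr11:3539293-3539492 on the minus strand. The Mylk start lies inside the gene as GENCODE draws it, and the Cnn1 and Mylk stretches end before the RefSeq start, at a GENCODE start upstream of it.
Cnn1: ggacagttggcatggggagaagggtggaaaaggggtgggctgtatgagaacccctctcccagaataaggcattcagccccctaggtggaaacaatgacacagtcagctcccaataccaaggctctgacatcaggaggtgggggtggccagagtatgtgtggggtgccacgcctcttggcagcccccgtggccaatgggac
Mylk: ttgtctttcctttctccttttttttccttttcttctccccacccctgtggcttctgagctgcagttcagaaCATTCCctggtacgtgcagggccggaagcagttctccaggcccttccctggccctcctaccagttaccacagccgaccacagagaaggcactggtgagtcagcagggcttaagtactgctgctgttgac
Smtn: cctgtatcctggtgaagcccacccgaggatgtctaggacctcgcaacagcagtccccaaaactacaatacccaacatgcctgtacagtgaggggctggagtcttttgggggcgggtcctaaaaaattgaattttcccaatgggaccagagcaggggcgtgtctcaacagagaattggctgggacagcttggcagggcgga
The Smtn window lies before the long forms, not before Smtn-201. In windows of 250 bases before the RefSeq start, searched on both strands, CATTCC was in 12.6% of 32851 promoters and in those of Mylk (positions -158 to -153 from the RefSeq start) and Smtn (positions -222 to -217, outside the stretch shown). A CArG box was in 1.47% of promoters and in none of the 6 member windows. TGGGAA, the core that the Notch partner Rbpj binds, was in 21.6% and, among members, in Smtn. The E-box CANNTG was in 66.2% and, among members, in Cnn1. No 2 different motifs overlapped in these windows, and a match here is a description only.

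Of the pericyte markers, Rgs5, Pdgfrb and Cspg4 were called in no comparison. Rgs5 had 415, 422, 354 and 456 CPM in chow novirus, from 329 through a median of 408 to 449 in chow Renin, from 381 through 450.3 to 487 in HFD novirus, and 472, 439, 392, 423 and 427 in HFD Renin. Its difference between HFD Renin and chow novirus was 0.07 (SE 0.09), with ±2 SE from -0.12 to 0.25, and the groups overlapped. Rgs5 and Tagln had r = -0.59 with group means removed, and the lowest Rgs5 value, 329 CPM, was in chow Renin heart 1, whose atrial sum was 610 CPM.

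Pdgfrb, the receptor for platelet-derived growth factor B, had means of 70.0 ± 4.47 CPM (SD, n = 4) in chow novirus, 68.8 ± 5.09 (n = 6) in chow Renin, 73.6 ± 9.36 (n = 6) in HFD novirus and 68.4 ± 4.86 (n = 5) in HFD Renin. It had 60.9 to 83.6 CPM over all hearts, and the groups overlapped. Its transcript Pdgfrb-201 took 99.5% of its reads.

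Cspg4 codes for the proteoglycan NG2 of the pericyte surface. It had 27.05, 25.7, 33.9 and 35.4 CPM in chow novirus, from 25.1 through a median of 27.9 to 31.0 in chow Renin, from 26.2 through 30.5 to 36.6 in HFD novirus, and 36.5, 33.7, 29.8, 33.1 and 31.5 in HFD Renin. In HFD Renin 4 of 5 hearts lay above all chow Renin hearts, but the difference of 0.22 (SE 0.09) missed the threshold (adjusted p = 0.0863, edgeR). Only 58.8% ± 4.98 of Cspg4 reads belonged to its coding transcript, and 31.7% to a retained-intron transcript at its 3′ end. Cspg4 and Pdgfrb had r = 0.66 with group means removed, and Cspg4 and Rgs5 had 0.00.

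Notch3 codes for the Notch receptor of mural cells, which keeps arterial smooth muscle differentiated. In chow novirus it had 57.8, 69.5, 66.1 and 87.9 CPM, and in chow Renin it ran from 55.1 through a median of 62.6 to 67.6. In HFD novirus it ran from 67.0 through 76.5 to 95.8 CPM, and in HFD Renin it had 59.1, 64.3, 63.2, 68.3 and 60.3. In HFD Renin 4 of 5 hearts lay below every HFD novirus heart, and 1 heart overlapped with them.

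The group means of Notch3 were 70.4 ± 12.7 CPM (SD, n = 4), 62.3 ± 4.77 (n = 6), 78.1 ± 11.4 (n = 6) and 63.0 ± 3.62 (n = 5) in chow novirus, chow Renin, HFD novirus and HFD Renin. HFD Renin fell by 0.31 on the log2 scale from HFD novirus (SE 0.10, adjusted p = 0.0397, edgeR), or to 0.808 times. Against chow novirus, HFD Renin gave -0.16 (SE 0.11, adjusted p = 0.386, edgeR), chow Renin -0.18 (SE 0.10, adjusted p = 0.297) and HFD novirus 0.15 (SE 0.10, adjusted p = 0.625). The interaction was -0.13 (SE 0.14, adjusted p = 0.643, edgeR), so the Renin effect was not shown to differ between diets. The HFD call was lost when HFD novirus heart 2, 5 or 6 or HFD Renin heart 1, 2, 3 or 5 was left out, with adjusted p of 0.0539 to 0.103 (edgeR). It was lost with the clock score as a covariate (-0.23, SE 0.13, adjusted p = 0.731, edgeR), in a fit that called 0 genes of all in that comparison, and without HFD novirus hearts 3 and 6 (-0.28, SE 0.10, adjusted p = 0.0768), and kept without the 5 libraries high in atrial markers (-0.35, SE 0.11, adjusted p = 0.0464).

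The gene most like each pericyte marker by the same rule was Mcam for Pdgfrb (r = 0.789), Jam2 for Rgs5 (0.809), Anxa5 for Cspg4 (0.829) and Anapc13 for Notch3 (0.864). The genes most like the mean of the 4 were Ehd2 (0.765), Fmnl3 (0.765), Spry2 (0.755), Col5a3 (0.753) and Kcnj8 (0.732), of which Kcnj8 codes for a potassium channel subunit of pericytes.

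The counts of the lists that follow stand beside those over all genes tested: 4.05% higher and 4.25% lower in HFD Renin against chow novirus, 6.07% and 5.08% against HFD novirus, and 10.1% and 3.36% in chow Renin against chow novirus. The wider contractile list held 26 further genes, all tested. In HFD Renin against chow novirus 1 was called higher and 2 lower, with a median log2 fold change of 0.13. Prkg1, the cyclic GMP-dependent kinase that relaxes smooth muscle, rose by 0.88 (SE 0.11, adjusted p = 0.00012, edgeR), from 7.54 ± 1.14 to 13.8 ± 1.45 CPM. Pcp4l1 fell by 0.40 (SE 0.10, adjusted p = 0.0185), and Tpm1, a tropomyosin that heart muscle makes in large amounts, fell by 0.27 (SE 0.08, adjusted p = 0.028). Against HFD novirus 3 were called higher and 3 lower, with a median of -0.01. Prkg1 rose there by 0.56 (SE 0.10, adjusted p = 0.0014, edgeR), Des (desmin) by 0.34 (SE 0.06, adjusted p = 0.002) and Synm (synemin) by 0.46 (SE 0.12, adjusted p = 0.016). Tpm1 fell by 0.26 and Ntf3, a neurotrophin, by 0.60.

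In chow Renin against chow novirus 3 of the 26 were called higher and 1 lower, with a median of -0.02. Kcnma1, a calcium-gated potassium channel of smooth muscle and of neurons, rose by 2.23 (SE 0.25, adjusted p = 4.1e-07, edgeR), Cald1 (caldesmon) by 0.39 and Prkg1 by 0.33, and Tpm1 fell by 0.25. The central neuron sum was 275 to 419 CPM in those chow Renin hearts against 133 to 146 in chow novirus, and Kcnma1 was not called with the nervous tissue score as a covariate (adjusted p = 0.979, edgeR). None of the 12 list gene calls named for chow Renin was kept in that fit, which called 26 genes of all in place of 2048. The score and chow Renin cannot be told apart, so the fit says nothing about these calls. In HFD novirus against chow novirus 0 of the 26 were called. Prkg1 and Tpm1 were called in all 3 Renin comparisons, in opposite directions.

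Of 20 further pericyte genes, 0 were called higher in the 3 comparisons of a Renin group with a control treatment, where 4.05% to 10.1% of all genes were. In HFD Renin against chow novirus 3 were lower: Agtr1a, the angiotensin II receptor, fell by 0.74 (SE 0.14, adjusted p = 0.0027, edgeR), from 37.6 ± 5.47 to 22.4 ± 4.03 CPM, Art3 by 0.47 and Tbx18 by 0.56. Against HFD novirus 3 were lower: Agtr1a again, by 0.50 (SE 0.13, adjusted p = 0.0163, edgeR), Kcnj8 by 0.34 (SE 0.08, adjusted p = 0.0088) and P2ry14, a nucleotide-sugar receptor, by 0.58. In chow Renin against chow novirus Mcam, a cell adhesion molecule of mural and endothelial cells, fell by 0.28 (SE 0.09, adjusted p = 0.0334). The medians over the 20 genes were 0.01, -0.20 and -0.18 in that order. Against HFD novirus 2 of 20 had a positive value, where the median over all genes was -0.01.

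The regulators and signalling genes were counted in the same way. Among 15 regulators of serum response factor and its partners, 1 was called in HFD Renin against chow novirus, Wwtr1 (TAZ), which rose by 0.27. Against HFD novirus 2 of 15 were higher and 2 lower, where 11.1% of all genes were called: Tead1 rose by 0.53 and Wwtr1 by 0.24, while Gata6 fell by 0.37 and Tead3 by 0.32. In chow Renin against chow novirus Klf5 rose by 0.88 from 0.681 to 1.26 CPM, and its value was -0.43 with the nervous tissue score as a covariate. The 9 genes of the platelet-derived growth factor pathway gave Ptpn11, a phosphatase of receptor signalling, higher by 0.49 (SE 0.12, adjusted p = 0.0144, edgeR) in HFD Renin against chow novirus and by 0.47 against HFD novirus, where the ligand Pdgfa fell by 0.43.

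Of 17 other Notch pathway genes, 0 were called in either HFD Renin comparison with a control treatment, where 8.29% and 11.1% of all genes were. In chow Renin 2 of 17 were lower, where 3.36% of all genes were: the ligand Jag2 fell by 0.25 (SE 0.07, adjusted p = 0.018, edgeR) and the target Hey2 by 0.50 (SE 0.16, adjusted p = 0.0342).

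Paralogs of the members, most of them made by other cell types, were listed as well. Of 18 tested, 1 was called higher and 3 lower in HFD Renin against chow novirus. Myh10, a nonmuscle myosin heavy chain, rose by 0.64 in HFD Renin against chow novirus (SE 0.17, adjusted p = 0.0269, edgeR) and by 0.80 against HFD novirus (SE 0.15, adjusted p = 0.0031). From chow novirus to HFD Renin, Mylk3, the kinase of cardiac light chain, fell by 0.30, Mylk4 by 1.23 and Rgs2, which curbs angiotensin signalling, by 1.21 (SE 0.24, adjusted p = 0.0054). In chow Renin against chow novirus 3 of 18 paralogs were higher and 0 lower, where 10.1% of all genes were higher. Cspg5, a proteoglycan of neurons, rose by 2.56 (SE 0.25, adjusted p = 4.5e-08, edgeR), Tagln3, a transgelin of neurons, by 1.99 (SE 0.25, adjusted p = 1.8e-06) and Rgs4 by 0.72 (SE 0.11, adjusted p = 4e-05), beside central neuron sums of 275 to 419 CPM against 133 to 146. Among 10 matrix genes of elastic vessels, 3 were higher and 1 lower in HFD Renin against chow novirus, with a median of 0.80, and Fbln2, a fibulin, rose by 0.74 (SE 0.15, adjusted p = 0.0047). Against HFD novirus 3 were higher and 1 lower, with Fbn1 (fibrillin) higher by 0.93 (SE 0.23, adjusted p = 0.0163). In chow Renin against chow novirus 1 was higher and 0 lower, with a median of -0.03: Lox, the enzyme that cross-links collagen and elastin, rose by 2.01 (SE 0.21, adjusted p = 5.3e-07, edgeR), from a mean of 9.004 CPM (SD 1.33) to 36.2 CPM (SD 10.99). It too was not called with the nervous tissue score as a covariate (adjusted p = 0.998, edgeR). That score and chow Renin cannot be told apart, so the fit says nothing about Lox. Fibroblasts make these matrix genes too: the fibroblast sum was 1603 to 2183 CPM in HFD Renin, 1214 to 2402 in chow novirus and 1420 to 2776 in HFD novirus, and its part was not tested.

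The diets under Renin, HFD Renin against chow Renin, gave the following counts, where 22.6% of all genes were called. Of the further contractile genes 4 of 26 were higher and 1 lower, and of the further pericyte genes 3 of 20 were higher and 1 lower. Of the regulators 5 of 15 were higher and 1 lower, of the platelet-derived growth factor genes 2 of 9 were higher and 1 lower, and of the Notch genes 2 of 17 were higher and 0 lower. Of the elastic vessel genes 5 of 10 were higher and 1 lower, and of the paralogs 2 of 18 were higher and 4 lower. All 8 central neuron markers were lower in HFD Renin there, and with the nervous tissue score as a covariate 37 genes of all were called in place of 3440.

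The list gene calls differed in how far they rested on single hearts. Of 41 such calls named, 15 were kept in all 21 fits that each left out 1 library: Prkg1 in both HFD Renin comparisons, Agtr1a, Rgs2 and Fbln2 against chow novirus, Cald1, Kcnma1, Cspg5, Tagln3, Rgs4 and Lox in chow Renin, and Des, Kcnj8, Ptpn11 and Myh10 against HFD novirus. Mylk4 lost its call without chow novirus heart 2 and P2ry14 and Synm without HFD Renin heart 5. Tbx18 lost its call in 10 of the 21 fits, Wwtr1 against chow novirus and Hey2 in 8, Mcam in 7, and Tpm1 in 7 in chow Renin and 6 in HFD Renin against chow novirus. The other calls were lost in 2 to 6 fits. With the clock score as a covariate, 6 of the 12 calls named for chow Renin were kept. In the HFD Renin comparisons with a control treatment that fit called 0 genes of all, so it says nothing about the 13 and 16 genes named there.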

How the data were processed

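Heart RNA of 21 mice was sequenced, 1 library per heart, and the titles gave each its group and number. For each library the authors deposited estimated counts and TPM per transcript (columns laid out as Salmon writes them, per the file headers; Salmon 1.10.2, DESeq2 1.40.2 and the builds GRCm38 and mm10 are named in the submitters' processing notes). The authors also deposited a gene table with a signal per library and the results of 1 comparison (log2 fold change, adjusted p-value), per the file headers; the scaling of that signal and the reference group are not given in the sources used here.

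Of 119215 transcripts per table, 98.0% matched GENCODE M21; the unmatched ones, with 0.854% to 0.925% of reads, were dropped. Gene totals of the estimated counts were taken and rounded to whole numbers. TPM were summed per gene. edgeR 4.0.16 (R 4.3.3) ran 1 fit over all 21 libraries with TMM factors (0.886 to 1.09), filterByExpr (15216 genes kept), robust dispersion and the quasi-likelihood F test. Adjustment was by Benjamini-Hochberg over all genes, and the SE is the log2 fold change over the square root of F. The common biological coefficient of variation was 0.154. CPM are TMM-normalized. After the main fit the procedure was also run on counts simulated from the mean levels and dispersions of these data. The simulation held no libraries that stand apart. Counts per library limit precision by counting error only; Cnn1 had as few as 18 reads in a library.

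The members and gene lists were chosen with earlier results of these data known. All members were named, with Acta2, and from each other list at most the 5 called genes with the smallest adjusted p; single libraries and transcripts were singled out after their values were seen. The most similar genes were ranked by r with group means removed. Log2 CPM (prior count 2) entered all correlations over hearts. Promoter sequences are from RefSeq and coding sequences from GRCm38. Of 28 pairs of same-numbered hearts of different groups, 11 had r over 0.1 (range -0.23 to 0.42, median 0.0775, against -0.0248 for other pairs). As not every pair was over 0.1, the numbers were not taken as pairs. That rule does not exclude structure shared by number: heart 3 of every group was high in atrial markers. Alternatives were DESeq2 1.42.0, limma 3.58.1 on log2(signal + 1), other size factors, no filter, thinned counts, covariates, a replicate block and leaving out libraries.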

Additional observations from a re-analysis of the deposited data

Results flagged for a closer look

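Of 36 groups of member values checked, 2 held a library far from the others; chance flags about 1 in 20 groups. Tagln in chow novirus was 52.7 CPM in heart 3 against 23.1 to 27.4 in the other hearts of its group, and that library had an atrial sum of 816 CPM against 80.7 to 102 in the others. Cnn1 in HFD novirus was 15.2 CPM in heart 3 against 0.809 to 3.51 in the others, and its atrial sum was 773 CPM against 85.1 to 112. The part of atrial tissue in either value was not tested. No member's interaction passed the test (edgeR, lowest adjusted p 0.345).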

How the results depend on the processing

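The number of members called stayed at its value in all 6 comparisons under other size factors, no filter, DESeq2, limma, thinned counts, mitochondrial genes left out and the atrial covariate or its 5 libraries left out. With the clock score as a covariate it was 0 in HFD Renin against chow novirus, 0 in chow Renin against chow novirus and 0 in HFD Renin against HFD novirus, where that fit called 0 genes of all in both HFD Renin comparisons; with the nervous tissue score it was 0 in chow Renin against chow novirus. Leaving out 1 library gave 1 to 2 in HFD Renin against HFD novirus, and leaving out HFD novirus hearts 3 and 6, chosen after seeing the data, gave 1. With the replicate block the counts were 1, 1, 0, 2, 0 and 0, and Smtn was at -0.37, -0.38 and -0.44 in the Renin comparisons, so the block changed no call of a member. Values that were not called changed sign in 127 alternative fits of a member; among those printed, Notch3 in chow Renin against chow novirus was 0.33 with the nervous tissue score, and Mylk in HFD Renin against HFD novirus was 0.0017 with the clock score. For Myh11, Tagln and Cnn1 in HFD Renin against HFD novirus the clock score gave 0.076, 0.15 and 0.32, and leaving out HFD novirus hearts 3 and 6 gave 0.18, 0.42 and 0.97; Cnn1 was 0.055 with the replicate block, 0.11 with the atrial score and 0.59 without the 5 atrial libraries. Leaving out 1 library gave -0.49 to 0.086 for Tagln and -0.55 to 0.72 for Cnn1 there, positive without HFD novirus heart 3, and -0.037 to 1.65 for Cnn1 in HFD novirus against chow novirus, negative without the same heart. In that comparison Tagln and Cnn1 were -0.0758 and -0.0186 with the nervous tissue score, and -0.29 and -0.28 without hearts 3 and 6. Klf5 in chow Renin was -0.43 with the nervous tissue score. Of 41 list gene values named, 15 kept their call in every fit without 1 library, among them Prkg1 in both HFD Renin comparisons, Agtr1a and Rgs2 against chow novirus, Des, Kcnj8 and Myh10 against HFD novirus. With the clock score 6 of the 12 in chow Renin kept it. Of the 41, limma on the deposited signal did not call 14, and the fit with no low-count filter did not call 8. Upper-quartile factors, thinned counts and the replicate block each lost 4, and the nervous tissue score lost 12. Over all genes, upper-quartile factors moved the calls of chow Renin against chow novirus from 1537 higher and 511 lower to 1625 and 264, those of HFD Renin against chow Renin from 1491 and 1949 to 844 and 2247, and those of the interaction from 478 and 1111 to 281 and 1200. HFD novirus against chow novirus had 10 genes called by edgeR and 111 by DESeq2, and from the deposited signal limma called 771 in HFD Renin against chow novirus (edgeR 1262) and 889 against HFD novirus (edgeR 1696). The cause of these changes was not tested. Depth limits Cnn1, which had 18 to 383 reads per library.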
